A study of Mus musculus with 4 samples.

Results

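Crabp1 and 7 other genes that carry, sense or take up vitamin A compounds were examined in NIH-3T3 cells, an immortalized mouse fibroblast line. The genes were Crabp1, Crabp2, Rara, Rarb, Rarg, Rxra, Rxrb and Stra6, and every probe that the platform annotation assigns to 1 of these symbols was taken. This gave 13 of the 25697 probes on the array, and 8 of the 16593 genes with a symbol. Crabp1 was selected on its log2 difference between the groups, and the other members were taken as genes of the same pathway with those values known. Total RNA was measured on 4 Illumina bead arrays. The first group, called microvesicle, held 2 samples of fibroblasts that had been given microvesicles, membrane-bound particles purified from the medium of cultured cardiomyocytes. The second group, called control, held 2 samples of fibroblasts without them. Per the labels, the cells of both groups were kept in Claycomb medium, and no genetic change or further agent was named for either. The labels do not say whether replicates came from separate cultures, so that the spread between them may be technical, and position on the chip and group cannot be told apart.

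Vitamin A reaches the cell as retinol, and the membrane protein STRA6 is known as its entry route from the plasma carrier. Retinol is oxidized to retinoic acid, which is held in the cytosol by the small binding proteins CRABP1 and CRABP2. In the nucleus it binds the receptors RARα, RARβ and RARγ, encoded by Rara, Rarb and Rarg. These pair with a retinoid X receptor, among whose genes are Rxra and Rxrb, and the pair sits on repeated hexamers in DNA called retinoic acid response elements. CRABP2 is known to hand retinoic acid to the receptors, whereas CRABP1 is known for holding it back and for favouring its breakdown. Rarb is a textbook target of its own pathway.

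The start regions of the genes are shown for the 3 members with the largest differences between groups, Crabp1, Rxrb and Rarg, and for Rarb, the textbook target. Each is the stretch of 250 bases before a gene start in RefSeq, build GRCm38.p6, printed 5′ to 3′ on the strand of the gene. In the first 3, capitals mark GGGCGG, read on either strand, the box bound by Sp1-type factors. In Rarg a pair of boxes shares 1 letter. In Rarb capitals mark both hexamers of a repeat with 5 letters between them.
Crabp1, chr9:54764498-54764747, plus strand: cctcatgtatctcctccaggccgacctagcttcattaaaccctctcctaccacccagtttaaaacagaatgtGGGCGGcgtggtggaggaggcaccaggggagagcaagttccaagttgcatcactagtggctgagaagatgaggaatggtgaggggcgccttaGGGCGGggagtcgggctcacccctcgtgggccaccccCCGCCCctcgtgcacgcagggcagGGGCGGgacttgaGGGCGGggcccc
Rxrb, chr17:34031562-34031811, plus strand: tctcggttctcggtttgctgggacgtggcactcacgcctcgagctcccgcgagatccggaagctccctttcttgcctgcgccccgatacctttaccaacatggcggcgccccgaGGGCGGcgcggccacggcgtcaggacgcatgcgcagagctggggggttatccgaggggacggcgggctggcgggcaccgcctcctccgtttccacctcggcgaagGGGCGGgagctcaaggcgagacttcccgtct
Rarg, chr15:102257523-102257772, minus strand: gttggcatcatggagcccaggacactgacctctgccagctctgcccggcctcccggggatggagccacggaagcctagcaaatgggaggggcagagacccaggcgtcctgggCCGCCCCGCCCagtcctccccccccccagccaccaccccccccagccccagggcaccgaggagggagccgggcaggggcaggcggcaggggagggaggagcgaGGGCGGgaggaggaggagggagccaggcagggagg
Rarb, chr14:16575477-16575726, minus strand: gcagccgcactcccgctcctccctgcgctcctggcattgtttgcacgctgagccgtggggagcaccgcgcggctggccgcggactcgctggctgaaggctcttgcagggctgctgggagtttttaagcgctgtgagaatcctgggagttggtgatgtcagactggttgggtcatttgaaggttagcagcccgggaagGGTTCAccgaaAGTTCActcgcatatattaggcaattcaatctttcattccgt
The search covered both strands. The hexamer was searched in 4 spellings. The first was AGGTCA, the second differed from it by a leading G (spelled GGGTCA), and the remaining ones had T as the third letter. Of these, one was spelled AGTTCA and its partner, again with a leading G, was spelled GGTTCA. A repeat was a pair of them in the same orientation with 1, 2 or 5 letters between (DR1, DR2 and DR5). A DR5 was present in 0.0883% of the 32851 start windows of the table, a DR2 in 0.174% and a DR1 in 0.164%. The table held 16 windows for 7 members and none for Crabp2, and some of these windows overlap. The Rarb window held the only repeat found among the 16, a DR5 that begins 53 bases before the start. Single hexamers were present in 4 of the 16 windows and in 38.6% of all windows. The Crabp1 window held 5 GGGCGG boxes and no hexamer of these spellings. GGGCGG was present in 11 of the 16 windows and in 32.7% of all windows. A match describes letters only and is not a measured site.

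The arrays were dim. Their median intensity lay between 39.9 and 41.2, and 14.6% to 20.5% of probes were detected, that is, had a detection p under 0.05. The upper end of the intensity range differed between arrays, with 95th percentiles of 75.1 and 59.6 in microvesicle replicates 1 and 2 and of 76.2 and 115 in control replicates 1 and 2. Signals of 1 gene before normalization are therefore not directly comparable between arrays. Of 18 fibroblast markers on the array, 10 were detected on both arrays of each group, among them Col1a2, Col3a1, Vim and Thy1, while Col1a1 and Pdgfra were not detected on any array. The summed normalized signal of all 18 was 5240 and 4212 in the microvesicle samples and 4490 and 4318 in the controls, and the part of any cell type in the member values was not tested. Of 21 cardiomyocyte markers, 15 were detected on no array, including Actc1, Myh7 and Nppa. Tnnc1, a troponin gene of heart and slow muscle, was detected on all 4 arrays, Des on both control arrays and no microvesicle array, and Mb, Myh6, Myl4 and Nkx2-5 on some. The summed normalized signal of all 21 was 484.8 and 502.8 with microvesicles and 490 and 490 in controls. On that scale the macrophage and leukocyte markers (8 on the array) summed to 293.8 and 298.8 with microvesicles and 288.8 and 282.3 in controls. The endothelial markers (8) summed to 172.8 and 176.4 with microvesicles and 185.9 and 170.9 in controls. The adipocyte markers (6) summed to 118.3 and 123.1 with microvesicles and 120.4 and 114.3 in controls. Of these last lists 6, 4 and 4 genes, in that order, were detected on no array, so much of each sum is background. The same holds for the cardiomyocyte sum, with 15 of 21 genes detected on no array.

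Crabp1 was bright in control fibroblasts and much dimmer after microvesicles. Its only probe (ILMN_1227671) had a signal before normalization of 65.9 and 75.2 in microvesicle replicates 1 and 2, against 248 and 393 in control replicates 1 and 2. Both microvesicle arrays lay far below both control arrays, and the probe was detected on all 4. The standard error over the beads of an array was 3.59 and 4.61 in the microvesicle samples and 8.8 and 17.6 in the controls, which is technical error within an array and not error between samples. In the order of brightness of each array, 93.9% and 96.7% of probes were dimmer than Crabp1 with microvesicles, against 98.8% and 98.5% in controls.

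After normalization, Crabp1 had a log2 signal of 5.50 and 6.52 with microvesicles, a mean of 6.01 ± 0.72, and of 8.01 and 7.69 in controls, a mean of 7.85 ± 0.23 (SD, n = 2 each). The log2 difference was -1.85, or 3.59-fold lower with microvesicles, and the means of the signals before normalization, 70.5 with microvesicles and 321 in controls, differed 4.54-fold. After normalization the larger spread lay in the microvesicle group. Its replicates were 1.02 apart on the log2 scale after normalization but 0.19 apart before it, where replicate 2 came from the dimmer array. The control replicates were 0.32 apart after normalization and 0.661 apart before it. In the processed values of the submitters the same probe stood at 30.3 and 76.9 with microvesicles and at 241 and 192 in controls. The direction was thus seen on both scales, while the size differed between the microvesicle replicates. In RNA from whole cultures, fewer cells with the transcript and less transcript per cell cannot be told apart.

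Crabp1 had the most negative log2 difference of the 3762 kept probes and was chosen with that known, so no p-value is given for it, and the other members were read from the same contrast and are also described without one. Under 13 alternative settings its log2 difference lay between -2.59 and -1.35. Some of them, which changed only the detection filter, the variance estimate or the replicate block, could not move the difference from -1.85. Since Crabp1 was chosen for its fall, its rank is no test. It had the largest fall in 9 of the 13. It was the third largest without background correction and the second largest in the submitters' processed values, with 3762 probes each. Without control replicate 1 it was the 12th largest of 5464 probes, and without microvesicle replicate 1 the 35th of 4600.

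**Figure D1:**
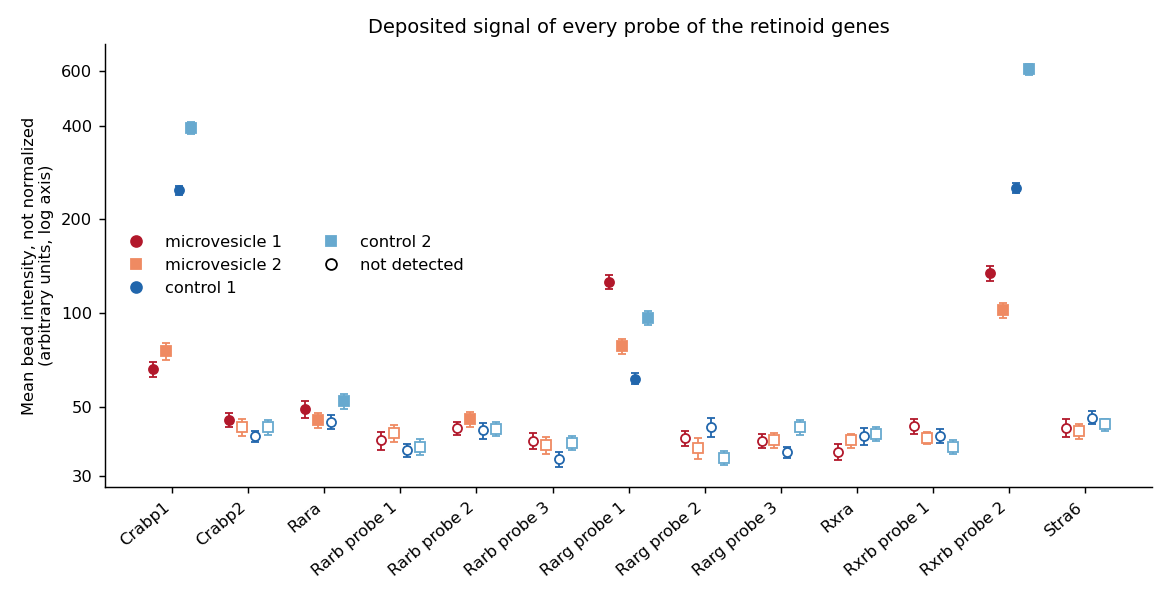
Signal before normalization (y axis, log scale, arbitrary units) of each of the 13 probes (x axis) on the microvesicle arrays (red) and the control arrays (blue), with the standard error over beads as bars and open symbols where the probe was not detected. On every array, Crabp1, 1 probe of Rarg and 1 of Rxrb stand above the level of 33.9 to 46.1 at which the 9 probes that were not kept lie. Rara exceeds that level only on microvesicle replicate 1 and control replicate 2.

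Crabp2, the relative of Crabp1, stayed at the level of the background. Its probe had a signal of 45.3 and 43 with microvesicles, against 40.2 and 42.9 in controls. It was detected on microvesicle replicate 1 alone, with a detection p of 0.0238, and both microvesicle values were above both control values, the closest pair by less than the standard error over beads (1.67 to 2.66). Stra6, the retinol entry protein, was not detected on any array, with 42.7 and 41.6 in the microvesicle samples and 46.1 and 43.8 in the controls. The groups overlapped after normalization (log2 signals of 4.35 and 4.29 with microvesicles, 4.43 and 4.32 in controls), and the lowest detection p, 0.0539 in control replicate 1, was just outside the limit of 0.05. On arrays this dim, no detection does not show that a transcript was absent.

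Among the retinoic acid receptors, Rarg was the member with a clear signal. The detected Rarg probe (ILMN_2618068) had 126 and 78.2 with microvesicles and 61.4 and 96.5 in controls before normalization, and on that scale the groups overlapped. By position in each array's order of brightness they did not, since 97.5% and 96.9% of probes were dimmer with microvesicles and 93.3% and 94.1% in controls. The normalized log2 signal was 6.93 and 6.61 with microvesicles, a mean of 6.77 ± 0.22, and 5.32 and 5.57 in controls, a mean of 5.45 ± 0.17 (SD, n = 2 each). The log2 difference was 1.32, or 2.5-fold higher with microvesicles, beside 1.29-fold between the means before normalization (102 with microvesicles, 79 in controls). It lay between 0.57 and 1.54 under the 13 alternatives, and 0.57 was its value when array medians over all probes were aligned. The other probes of Rarg, with signals from 36.8 to 39.6 and 34.2 to 43 in the microvesicle and control samples, were detected on no array. They thus neither shared nor opposed the difference, and the platform annotation gives all 3 probes the same transcript accession.

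Rara, the receptor gene expressed most widely among tissues, was near the limit of detection. Its probe (ILMN_2661242) had 49 and 45.3 with microvesicles and 44.7 and 52.1 in controls, and the groups overlapped. It was detected on both microvesicle arrays and on control replicate 2, so that it was kept through the microvesicle group alone. The normalized log2 signal averaged 4.63 ± 0.13 with microvesicles and 4.48 ± 0.16 in controls (SD, n = 2 each), a log2 difference of 0.15, which was within the spread of the replicates. It went to -0.0072 when array medians over all probes were aligned.

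Rarb, whose start region carries the DR5 printed above, gave no signal above background on its other probes and a single detection on 1 of 3. That probe had 42.6 and 45.6 with microvesicles, against 41.9 and 42.5 in controls, and was detected on microvesicle replicate 2 with a detection p of 0.0351. The remaining Rarb probes had 38.9 and 41 and 38.8 and 37.5 with microvesicles, and 36.2 and 37.2 and 33.9 and 38.1 in controls. Values at this level have no order that can be read as a difference in transcript.

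Of the retinoid X receptor genes among the members, Rxrb had a signal and Rxra did not. The detected Rxrb probe (ILMN_2593038) had 134 and 102 with microvesicles, against 253 and 607 in controls. Both microvesicle arrays were below both control arrays, and the control arrays differed by 1.26 on the log2 scale before normalization and by 0.27 after it. The normalized log2 signal was 7.04 and 7.22 with microvesicles, a mean of 7.13 ± 0.12, and 8.05 and 8.32 in controls, a mean of 8.18 ± 0.19 (SD, n = 2 each). The log2 difference was -1.05, or 2.07-fold lower with microvesicles, beside 3.64-fold between the means before normalization (118 with microvesicles, 430 in controls). It lay between -1.94 and -0.89 under the 13 alternatives. The other Rxrb probe was detected on no array (43.2 and 39.7 with microvesicles, 40.2 and 37.1 in controls). The platform annotation gives both Rxrb probes the same transcript accession, so the difference rests on the detected probe alone. Rxra was detected on no array either, with 35.8 and 38.9 in the microvesicle samples and 40.1 and 40.8 in the controls.

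**Figure D2:**
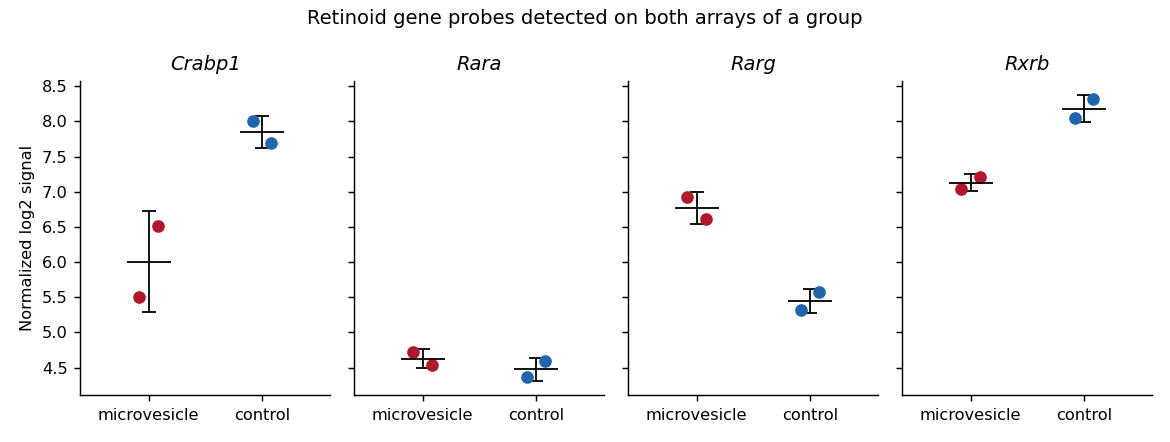
Normalized log2 signal (y axis) of the 4 probes kept for the comparison, for the microvesicle samples (red) and the control samples (blue), with the mean and SD in black (n = 2 each). Crabp1 and Rxrb are lower with microvesicles (log2 difference -1.85 and -1.05), Rarg is higher (1.32), and the groups overlap for Rara.

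Read as a group, the retinoid genes thus went both ways. In all, 4 of the 13 probes were kept, that is, detected on both arrays of at least 1 group. Over all 3762 kept probes, limma with Benjamini-Hochberg adjustment called 7.55%, with 3.43% higher and 4.12% lower. Of the 4 kept member probes, 1 was called higher (Rarg) and 2 lower (Crabp1 and Rxrb). Since the members were chosen with this contrast known, that count describes the choice, is no test of the members, and nothing is read from it. The calls of all 3 were lost in 6 of 13 alternatives, which were the alignment of the medians of all probes, no detection filter, and each fit that left out 1 array. At adjusted p under 0.01, a threshold not among these 13, Crabp1 was not called either. Nothing is read from the calls that remained, for the same reason. For 57.5% of kept probes both microvesicle values lay on the same side of both control values.

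**Figure D3:**
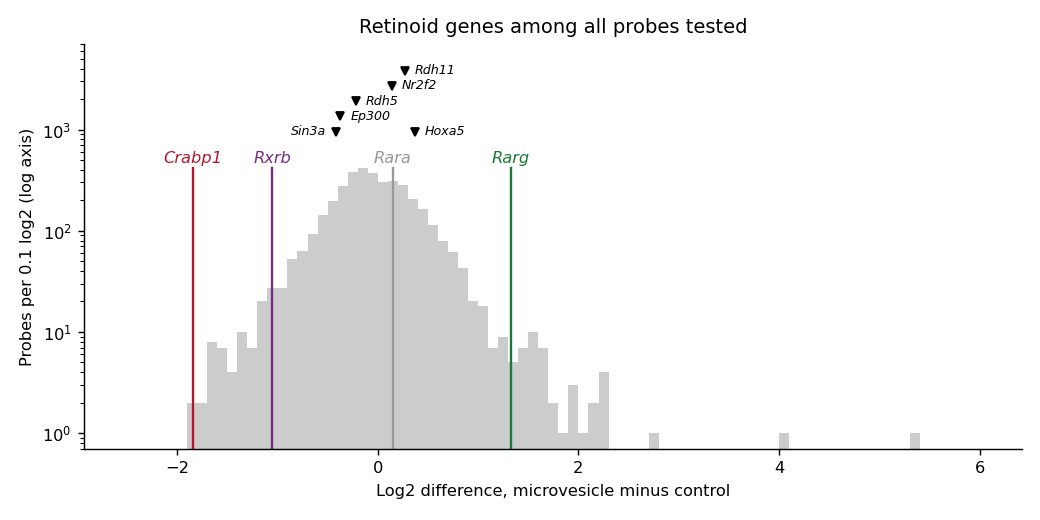
Number of kept probes (y axis, log scale) by log2 difference, microvesicle minus control (x axis), with the 4 kept members as coloured lines and the 6 kept probes of other retinoid pathway genes as triangles, whose height carries no value. Crabp1 lies at the lower end of the 3762 probes, Rxrb and Rarg lie in the tails, and the 6 pathway probes lie between -0.42 and 0.37.

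The remainder of the pathway was read from 4 lists of carriers, metabolic enzymes, receptor partners and coregulators, and targets of retinoic acid, without the members. They held 94 genes, of which 83 were on the array with 115 probes, and 82 of these probes were detected on no array. Kept were 6 probes of 6 genes. Of these, 3 were kept through the controls alone, and all 3 were lower with microvesicles, a direction that such a filter favours. With limma, 0 of the 6 passed adjustment in either direction and 1 had an unadjusted p under 0.05, as did 24.8% of all kept probes. Their median log2 difference was -0.04, beside -0.06 over all kept probes. Without the detection filter, 0 of 115 passed, as did 0.113% of all probes, and 5 of 115 had an unadjusted p under 0.05, beside 7.54% of all probes.

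None of the 10 probes of the carrier list was kept, and 8 of them were detected on no array. Of the metabolic enzymes, Rdh11 and Rdh5, both retinol dehydrogenases, were kept out of 39 probes. Rdh11 averaged 5.27 ± 0.25 with microvesicles and 5.00 ± 0.13 in controls on the normalized log2 scale (SD, n = 2 each), a log2 difference of 0.27 (limma adjusted p = 0.433, and 0.225 to 0.847 over its alternatives). Rdh5, detected on 1 microvesicle array and kept through the controls, had a log2 difference of -0.22 (limma adjusted p = 0.564, and 0.365 to 0.911 over its alternatives). For both the groups overlapped. Rdh5 was higher in the controls, through which it was kept, so its p-values are no independent test of the difference. The Cyp26 genes, whose enzymes break down retinoic acid, and the Aldh1a genes, whose enzymes make it, had no kept probe.

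Among 38 probes of partners and coregulators, 3 were kept. Sin3a, a scaffold of corepressor complexes, had signals of 45.9 and 42.6 with microvesicles and 52.1 and 60.9 in controls, and a log2 difference of -0.42 (limma adjusted p = 0.198, and 0.161 to 0.862 over its alternatives). It was detected on 1 microvesicle array and kept only through the controls, where it was higher, so its p-values are no independent test of the difference. The same holds for Ep300, which encodes a histone acetyltransferase that serves as a coactivator. It had 47.6 and 42.6 with microvesicles and 54.9 and 55.9 in controls, and a log2 difference of -0.37 (limma adjusted p = 0.298, and 0.238 to 0.976 over its alternatives). Nr2f2, an orphan receptor gene and the remaining kept member of the list, had a log2 difference of 0.14 (limma adjusted p = 0.646, and 0.493 to 0.980 over its alternatives).

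Of 32 probes for retinoic acid targets, only that of Hoxa5, a homeobox gene of the anterior trunk, was kept. It had 435 and 272 with microvesicles and 343 and 731 in controls before normalization, where the groups overlapped. The normalized log2 signal averaged 8.93 ± 0.11 with microvesicles and 8.56 ± 0.05 in controls (SD, n = 2 each). The log2 difference was 0.37 (limma adjusted p = 0.242, and 0.111 to 0.888 over its alternatives), and it had the opposite sign under both median alignments, -0.53 over all probes and -0.086 over kept probes.

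The 5 kept probes with 1 symbol whose values followed those of Crabp1 most closely over the 4 arrays were probes of Hspb6, Sema4b, Sbf1, C4b and Igfbp4. Likeness was the distance between log2 values, each probe centred on its own mean, and lay between 0.49 for Hspb6 and 0.656 for Igfbp4, beside 1.99 for the distance of Crabp1 from its own mean. All 5 probes were detected on all 4 arrays. Hspb6, which encodes a small heat shock protein, had 5.71 and 6.23 with microvesicles and 7.73 and 7.26 in controls. Like Crabp1, it was higher in microvesicle replicate 2 than in replicate 1 and lower in control replicate 2 than in replicate 1. Sema4b, a semaphorin gene, had 6.65 and 7.27 with microvesicles and 8.44 and 8.40 in controls. For Igfbp4, whose product binds insulin-like growth factors, this probe had a log2 difference of -1.81, whereas another kept probe of the gene had 0.02. The distance rests mostly on the difference between groups, for which Crabp1 was chosen, so the list is a description over 4 arrays.

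**Figure D4:**
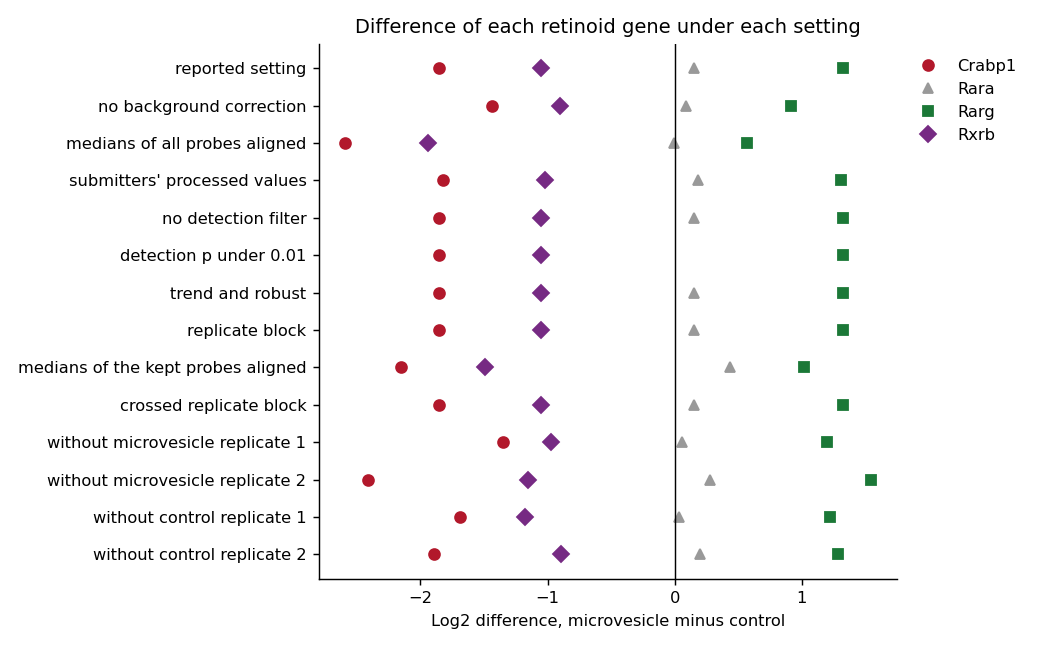
Log2 difference, microvesicle minus control (x axis), of the 4 kept members under the reported setting and 13 alternatives (y axis). Settings that change only the detection filter, the variance estimate or the replicate block cannot move these differences. Crabp1 and Rxrb stay below 0 and Rarg above it in every setting shown, while Rara lies at -0.0072 to 0.43 over its alternatives and has no value with detection p under 0.01.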

How the data were processed

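Total RNA of 4 samples, 2 microvesicle and 2 control, was measured on 4 arrays. The submitters' processing notes name BeadStudio 3.3. The deposited intensity values average the beads of each probe and are neither background-subtracted nor normalized. The deposited detection p-value compares a probe with the negative controls of its array, and bead numbers (22 to 58 for the members) and standard errors were deposited too. The deposited processed intensity values are background-subtracted on a linear scale, and the sources used here do not name their normalization.

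Background was corrected by neqc of limma 3.58.1 in R 4.3.3, which used the detection p-values, an offset of 16 and quantile normalization and returned log2 signals. Because of the offset, differences of dim probes are compressed. A probe was kept, as 3762 of 25697 were, if its detection p was below 0.05 on both microvesicle or both control arrays. The groups were then compared (two-sided) by lmFit and eBayes without covariates, with Benjamini-Hochberg adjustment over the kept probes and a threshold of 0.05. Only 4 arrays limit the precision of every value. The p-values rest on the spread between these 4 samples, which eBayes draws for each probe partly from all kept probes. The test was first checked on simulated data, where it recovered 52% of 2-fold changes and 99% of 4-fold changes.

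Platform annotation gave 1 symbol for 23978 probes and none for 1719. Start windows are from RefSeq, GRCm38.p6, read with Python 3.11.15. The members and lists were chosen with earlier results of these data known. All members were named; of each pathway list, up to 3 passing probes each way or else the 2 kept probes with the largest absolute difference, and the 5 probes most like Crabp1. Nr2f2 was added after its values were seen. Alternatives were no background correction, other scalings, the processed values, no or a stricter detection filter, trend and robust estimation, a stricter threshold, the replicate number as a block and leaving out each array.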

Additional observations from a re-analysis of the deposited data

How the results depend on the processing

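Of the alternatives, 2 were chosen after seeing the data, namely the alignment of kept-probe medians and a block that crosses the replicate numbers. Against 284 probes changed (129 higher, 155 lower), 67 were called at adjusted p under 0.01, 29 with no detection filter, 593 with trend and robust estimation, and 0 when array medians over all probes were aligned (398 at an unadjusted p under 0.05, limma). Leaving out 1 array gave 0 to 10, where the spread of a lone sample is assumed to be that of the other group. After alignment of kept-probe medians, 76 were higher and 277 lower (21.5% higher, beside 45.4% as reported). The median log2 difference of the kept probes was -0.064 as reported, -0.39 after alignment over all probes and 0.05 after alignment over kept probes. Crabp1 had -2.59 when array medians over all probes were aligned, and -2.41 to -1.35 when 1 array was left out.

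The number of changed probes of the other pathway genes was 0 in every alternative. When array medians over all probes were aligned, Rdh11 went to -0.22, Nr2f2 to -0.41 and Hoxa5 to -0.53. After alignment of kept-probe medians Hoxa5 had -0.086, and without microvesicle replicate 1 Rdh5 had 0.036 (-0.55 without microvesicle replicate 2). The cause was not tested. Of 157 values recomputed, 133 were scored as unchanged, 18 moved and 6 changed sign, among them Rara at -0.0072 after alignment over all probes. Member differences could not move where only the detection filter, the variance estimate or the block changed, so part of the 133 was fixed in advance. A count was scored as unchanged if it was close in size to the reported count. Other values had to stay on their side of the threshold or within the replicate spread. For the members, loss of a call did not enter this score.

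Samples with the same replicate number did not deviate together (r = -0.133 over the kept probes). With 2 arrays per group, this value cannot show whether the number marks a shared culture or preparation. With the replicate number as a block, 313 probes were called, 0 of the pathway genes. In this balanced layout a block cannot move a log2 difference, so Crabp1 stayed at -1.85. The crossed pairing called 396. The dimness of the arrays limits what can be said of the 9 member probes that were not kept.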
